A study of Mus musculus with 258 samples.

Results

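The genes described here are the ligands and receptors of axon guidance: semaphorins with their plexin and neuropilin receptors, Slits with Robo receptors, netrins with Dcc and Unc5 receptors, and ephrins with Eph receptors. They were chosen by gene symbol alone, from a pattern that covers these families, and not by any measured value. The pattern found 68 of the 40824 genes listed: 7 class 3 semaphorins, 13 membrane semaphorins (classes 4 to 7), 11 plexins and neuropilins, 6 Slit and Robo genes, 9 netrin, Dcc and Unc5 genes, 14 Eph receptors and 8 ephrins.

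The study asked how pancreatic progenitors of the mouse embryo become endocrine cells, and what Jmjd3, a demethylase of histone H3 lysine 27 encoded by Kdm6b, does in that step. Bulk RNA was read in 2 libraries for each of 3 sorted populations. Cells low and high for Ngn3 (Ngn3-low, Ngn3-high) were taken from dorsal pancreas of Ngn3-GFP embryos at E13.5 (E for embryonic day) and separated by GFP level, which reports Ngn3, the transcription factor encoded by Neurog3. The Ins1-RFP positive cells were taken at E17.5 from pancreas, where a red reporter of the insulin gene Ins1 marks nascent beta cells. Stage and reporter differ along with cell type in every comparison with the Ins1-RFP positive cells, and these cannot be told apart. Single E13.5 dorsal pancreas cells fell into 4 groups. The WT groups held 59 Ngn3-high and 49 Ngn3-low cells, and the groups carrying Pdx1-Cre and Jmjd3 fl/fl, called Jmjd3-deleted here, held 44 Ngn3-high and 69 Ngn3-low cells. Pdx1-Cre drives recombination in the early pancreatic epithelium. No Cre is named for the WT cells, so Cre itself and loss of Jmjd3 cannot be told apart, and no animal is named for any cell, so each single-cell group counts as 1 sample and has no test.

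Guidance molecules were first known from growing axons, which they attract or repel, and the same molecules steer migrating cells, vessels and epithelia. A ligand on one cell, or secreted by it, binds a receptor whose cytoplasmic part acts on small GTPases and the actin cytoskeleton, so that adhesion and shape change. Endocrine progenitors leave the pancreatic epithelium and gather into islets; Slit and Robo signals are known for islet architecture, and Eph and ephrin signals for contact between beta cells.

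Between 11957415 and 17760214 reads fell in genes in each bulk library, which puts 3 reads, the floor used here, at 0.169 to 0.251 CPM (counts scaled to library size). Cells held 380478 to 1949839 reads. Replicate libraries differed by more than sampling noise in every group, with chi-square values over their degrees of freedom at 13.8 or more, and nothing in the labels says whether they came from separate litters, so p-values measure the spread between these libraries only. The sorted cells carried the markers of their labels. Summed over 8 epithelial genes such as Epcam, the 6 libraries held 2389 to 3009 CPM. Endocrine progenitor genes (6, among them Neurog3) summed to 290 and 305 CPM in Ngn3-low, 3147 and 3409 in Ngn3-high and 875 and 905 in Ins1-RFP positive libraries, and 7 beta cell genes reached 68181 and 100329 CPM in the last group. Kdm6b, the deleted gene, stood at 131 CPM in WT and 55.5 CPM in Jmjd3-deleted Ngn3-low single cells, and at 265 and 107 CPM in the Ngn3-high groups.

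The bulk Ngn3-low libraries also held transcripts of other cell types. All 13 endothelial markers and all 12 macrophage markers tested were lower in Ngn3-high cells. Endothelial genes summed to 491 and 544 CPM in Ngn3-low, 11 and 16.1 in Ngn3-high and 63.2 and 78.9 in Ins1-RFP positive libraries. For macrophage genes the sums were 2878 and 3456, then 10.7 and 19, then 73.5 and 136 CPM. In WT Ngn3-low single cells the same lists summed to 46.2 and 9.19 CPM. Cdh5, which defines endothelium, had 0 reads in every single-cell group. Pecam1, another endothelial marker, had reads in 27 of 49 WT Ngn3-low and 44 of 59 WT Ngn3-high cells, and reached 10 CPM in 1 of each. At 10 CPM or more, 40 of the 49 WT Ngn3-low cells held at least 1 endothelial marker and 1 held 3 or more. Among the 59 WT Ngn3-high cells those counts were 25 and 0. Ins1-RFP positive library 2 held more acinar and mesenchymal transcripts than library 1, at 24738 against 1448 CPM over 10 acinar genes and 720 against 190 CPM over 11 mesenchymal genes. In bulk samples, fewer cells of a type and less RNA per cell cannot be told apart.

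Bulk differences are log2 fold changes with their standard error (SE) from edgeR's quasi-likelihood test, with p-values adjusted by the Benjamini-Hochberg method over 15684 genes and called at 0.05. Of the 68 genes, 64 passed the filter on low counts. Epha6, Epha10, Robo3 and Ntn5 did not, and none of them exceeded 0.619 CPM in any library. In Ngn3-high against Ngn3-low cells, 19 of the 64 rose, 27 fell and 18 were not called, where 27.7% of all genes tested rose and 30.2% fell. The share of guidance genes that rose was 29.7% and the share that fell 42.2%, with a median log2 fold change of -0.26 against -0.01 over all genes. In Ins1-RFP positive against Ngn3-high cells, 8 rose and 29 fell (12.5% and 45.3%), where 26.1% of all genes rose and 24.9% fell (50.9% called); the medians were -0.43 and 0.01. Without Ngn3-high library 1 the falls numbered 19. In Ins1-RFP positive against Ngn3-low cells, 9 rose and 31 fell (14.1% and 48.4%), against 30.4% and 35.5% of all genes (66% called), with medians of -0.79 and -0.08. The 3 comparisons share libraries, so they are not independent of each other. Scaling by total counts moved the median of all genes in the last comparison to -0.24, and the guidance genes called were then 9 higher and 35 lower. Under DESeq2 size factors or total counts, no called fold change among the 44 genes named by rule changed sign.

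**Figure D1:**
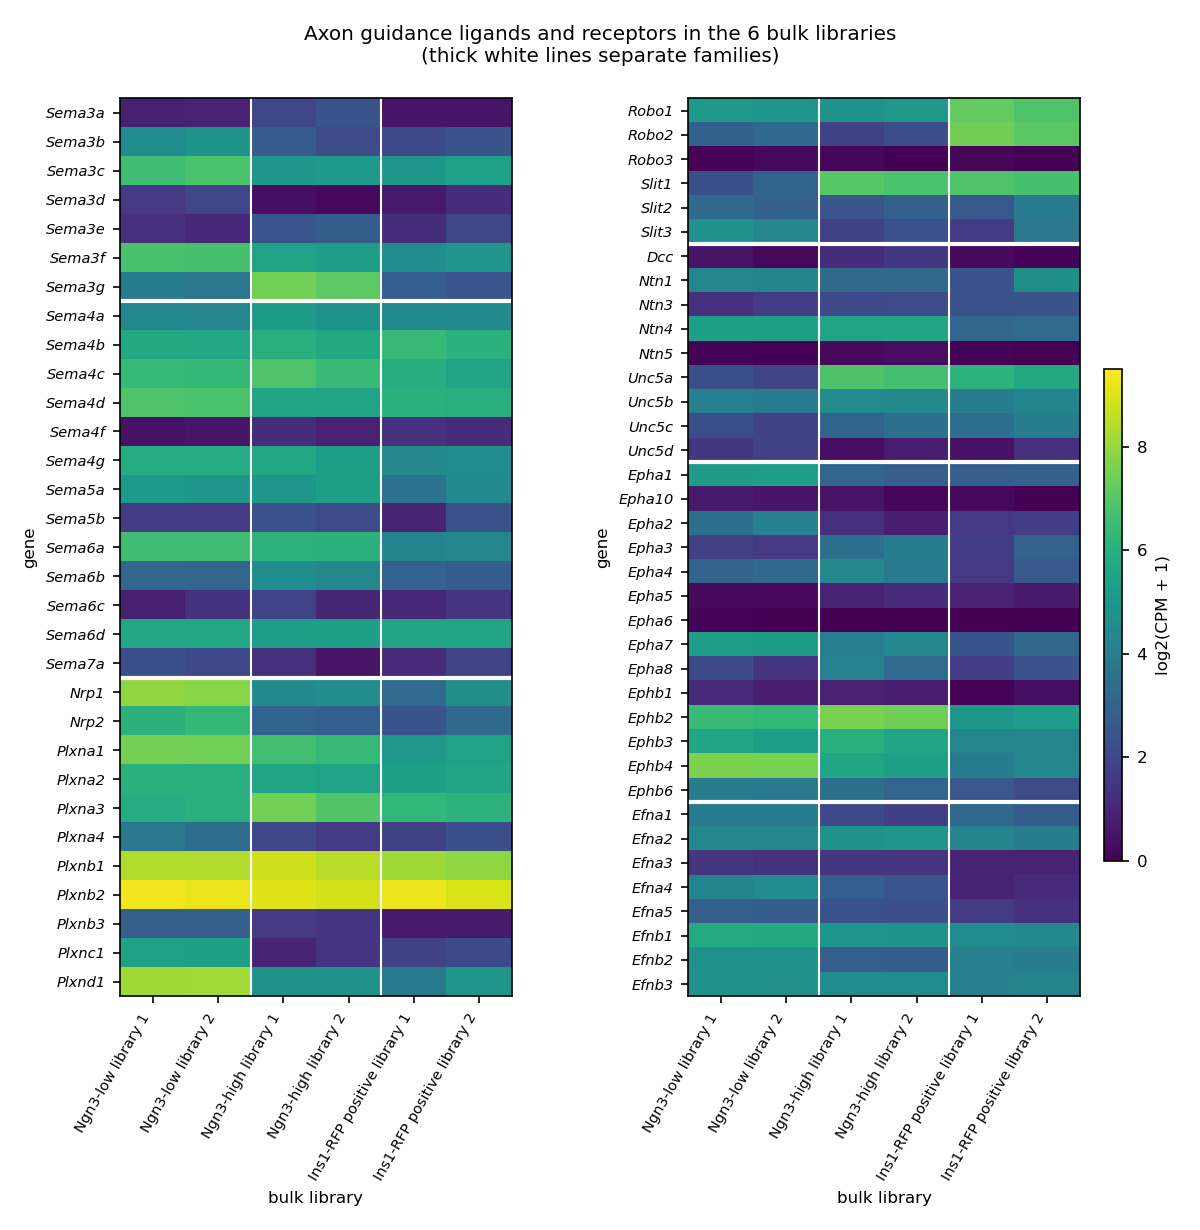
Level of all 68 guidance genes (rows, grouped by family) in the 6 bulk libraries (columns), as log2 of CPM plus 1 on a colour scale. Plexins and neuropilins such as Nrp1, Plxnd1 and Plxnc1 are brightest in the Ngn3-low columns, while Slit1 and Unc5a are dark there and bright in the other 4 libraries.

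Levels of different genes can be compared only per unit of length. By the authors' pooled RPKM (reads scaled to gene length and depth, 1 value a group and so without error), Plxnb2, a plexin that binds class 4 semaphorins, was the most abundant guidance gene in every population, at 91.6 in Ngn3-low, 79.0 in Ngn3-high and 94.1 in Ins1-RFP positive cells. After it the order differed. In Ngn3-low cells Ephb4 (41.7), Plxnd1 (38.4), Nrp1 (37) and Plxnb1 (36 RPKM) came next. In Ngn3-high cells Plxnb1 (48) was followed by Sema3g (35.2), Sema4c (27.6) and Unc5a (27.3 RPKM). In Ins1-RFP positive cells Plxnb1 (32.7), Sema4b (21.3), Slit1 (21.1), Robo2 (20.4) and Robo1 (19.1 RPKM) followed.

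Slit1 and the Robo receptors rose at different steps. Slit1, a secreted ligand of Robo receptors (chromosome 19, 41597824 to 41747275, GRCm38), rose from Ngn3-low to Ngn3-high cells, and Robo1 and Robo2 rose from Ngn3-high to Ins1-RFP positive cells. Slit1 stood at 4.00 and 7.28 CPM in the Ngn3-low, 129 and 110 CPM in the Ngn3-high and 116 and 106 CPM in the Ins1-RFP positive libraries. Ngn3-low lay apart from the other groups, which overlapped each other. The rise was 4.53 on the log2 scale (SE 0.235, edgeR adjusted p = 1.42e-06), and the difference between Ins1-RFP positive and Ngn3-high cells was -0.03 (SE 0.188, edgeR adjusted p = 0.92). Robo2, on chromosome 16 (73891976 to 75447443), held 6.81 and 8.59 CPM, then 2.55 and 3.76 CPM, then 172 and 132 CPM. It fell by 1.22 into Ngn3-high cells (SE 0.246, edgeR adjusted p = 0.00294) and rose by 5.70 (SE 0.233, edgeR adjusted p = 2.14e-06) into Ins1-RFP positive cells, the largest fold change of any guidance gene in that comparison. Robo1, its neighbour on chromosome 16 (72027518 to 73047491), was level across the bulk E13.5 libraries, at 33.7, 31.2, 28.2 and 32.8 CPM. It reached 148 and 117 CPM in Ins1-RFP positive cells, a rise of 2.20 (SE 0.152, edgeR adjusted p = 1.67e-05). Slit3, another secreted Slit, went the other way, with 28.2 and 20.2 CPM before (Ngn3-low) against 2.61 and 4.27 CPM in Ngn3-high libraries, a fall of 2.76 (SE 0.666, edgeR adjusted p = 0.00729). Without Ngn3-high library 1 that fall was not called (adjusted p = 0.0802). In Ins1-RFP positive cells Slit3 read 2.14 CPM in library 1 and 12.7 in library 2, the library with more mesenchymal transcripts, and Slit2 read 5.15 and 13.6 CPM; the part of those transcripts in these values was not tested. Slit3 was called higher than in Ngn3-high cells without Ins1-RFP positive library 1 (log2 fold change 1.98, edgeR adjusted p = 0.000400).

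Among netrin receptors, Unc5a rose most of all guidance genes from Ngn3-low to Ngn3-high cells. Unc5 proteins mediate repulsion by netrins, and can signal cell death when no netrin is bound. Unc5a (chromosome 13, 54945151 to 55006018) went from 3.89 and 2.86 CPM to 115 and 99.7 CPM, and stood at 69.5 and 51.8 CPM in Ins1-RFP positive cells. The 3 groups did not overlap. The rise was 5.05 (SE 0.227, edgeR adjusted p = 6.97e-07), and the later fall was 0.74 on the log2 scale with an adjusted p = 0.00835, or 0.0709 without Ngn3-high library 1. Unc5b rose from 16.3 and 14 CPM to 23 and 21.2 CPM, by 0.62, and was not called without Ngn3-low library 2 (edgeR adjusted p = 0.129) or without Ngn3-high library 1 (0.0808). Unc5c rose from 3.83 and 2.70 CPM to 7.30 and 10.5 CPM, and held 9.92 and 15.5 CPM in Ins1-RFP positive cells, where it was 2.1 above Ngn3-low; against Ngn3-high it was not called with all libraries (edgeR adjusted p = 0.127) but was without Ins1-RFP positive library 1 (0.88, adjusted p = 0.0297). Of 8 genes of this family tested in bulk, 5 rose into Ngn3-high cells and 1, Unc5d, fell, where 27.7% of all genes tested rose and 30.2% fell. In WT single cells Unc5b was lower in Ngn3-high than in Ngn3-low cells, at 2.18 against 5.47 CPM. Dcc, the attractive netrin receptor, was 1.84 CPM or less in every library. Ntn3 was the netrin that rose, from 1.52 and 2.21 CPM to 3.32 and 3.51 CPM (0.97, SE 0.309, edgeR adjusted p = 0.0253), and it held 4.15 and 4.40 CPM in Ins1-RFP positive cells. That first rise was not called without Ngn3-low library 1 (0.73, edgeR adjusted p = 0.169), without either Ngn3-high library (0.0783 and 0.0815) or by DESeq2 (0.0781). Ntn4, a netrin of basement membranes, held 40.4 and 40 CPM before (Ngn3-low) against 45.4 and 46.9 CPM in Ngn3-high cells, then 7.85 and 9.10 CPM in Ins1-RFP positive cells, a fall of 2.36 (SE 0.138, edgeR adjusted p = 8.98e-06). Ntn1, the founding netrin, read 19.1 and 18 CPM, then 8.66 and 8.2, then 4.40 and 25.6 CPM, and was called in no comparison; its 2 Ins1-RFP positive libraries lay on either side of all others.

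Class 3 semaphorins are secreted, and most act through a neuropilin joined to a class A plexin or Plxnd1. All 7 were called between Ngn3-low and Ngn3-high cells, with 3 rises and 4 falls, where 57.9% of all genes tested were called. Sema3g, which signals through neuropilins, was high in Ngn3-high cells alone. In Ngn3-low libraries it read 14.8 and 12.5 CPM, then 175 and 138 in Ngn3-high, and 6.22 and 4.70 CPM in Ins1-RFP positive libraries, a rise of 3.60 (SE 0.188, edgeR adjusted p = 1.45e-06) followed by a fall of 4.75 (SE 0.205, edgeR adjusted p = 2.52e-06). Sema3a and Sema3e also rose, from at most 1.41 CPM in Ngn3-low to 3.02 to 6.02 CPM in Ngn3-high libraries, and fell in Ins1-RFP positive cells. The fall of Sema3e was not called by DESeq2, nor in edgeR without any of the E13.5 libraries or Ins1-RFP positive library 1. The ligands of the Ngn3-low cells were Sema3c and Sema3f. Sema3c, known as a ligand in outgrowing epithelia and vessels, went from 95.8 and 110 CPM to 32 and 33.5 CPM (fall of 1.57, SE 0.150, edgeR adjusted p = 3.98e-05), and held 31.3 and 42.2 CPM in Ins1-RFP positive cells. Sema3f, a ligand of Nrp2, went from 108 and 105 CPM to 44.4 and 38.3 CPM and then to 23.7 and 29.8 CPM. Its second fall, of 0.55, was not called without Ngn3-high library 1 (edgeR adjusted p = 0.0761) or without Ins1-RFP positive library 1 (0.0827). Sema3b fell from 23.9 and 28.9 CPM to 5.63 and 3.60 CPM, by 2.41, and stood at 3.27 and 4.40 CPM in Ins1-RFP positive cells. Sema3d was lowest of the falling genes, at 3.03 CPM or less throughout.

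Windows before a transcript start of Unc5a and of Sema3g are printed because these genes rose together into cells that express Neurog3. With Slit1 they had the 3 largest rises of the guidance genes at 10 CPM or more. Neurog3 and Neurod1 are basic helix-loop-helix factors, a class that binds the E-box CANNTG. The sequences are the 250 bases before a transcript start in a RefSeq table of GRCm38.p6, plus strand for both, with each CANNTG in capitals. The motif reads the same on both strands, and CAGCTG and CAGATG are cases of it. The Unc5a window is chr13:54949161-54949410, which lies inside the span of the gene given above and so precedes an internal start, not the first one; the region before the first start was not analysed here. The Sema3g window is chr14:31217623-31217872, directly before the gene.
Unc5a: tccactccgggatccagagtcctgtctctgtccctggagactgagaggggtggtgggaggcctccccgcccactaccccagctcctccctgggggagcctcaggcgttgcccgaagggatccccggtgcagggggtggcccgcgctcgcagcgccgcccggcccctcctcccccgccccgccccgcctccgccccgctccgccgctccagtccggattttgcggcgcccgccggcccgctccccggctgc
Sema3g: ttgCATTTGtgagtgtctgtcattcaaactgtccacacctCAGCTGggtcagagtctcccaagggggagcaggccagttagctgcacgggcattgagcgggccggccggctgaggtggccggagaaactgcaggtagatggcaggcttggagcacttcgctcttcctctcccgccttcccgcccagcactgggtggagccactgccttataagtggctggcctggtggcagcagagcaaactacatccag
Unc5a had 0 matches in this window and Sema3g had 2, CATTTG and CAGCTG, starting 247 and 210 bases before the start. CANNTG occurred in 66.2% of the 32851 promoter windows of this length and in 35 of the 74 windows of the 58 guidance genes found in the table. CAGATG (or CATCTG on the other strand) occurred in 14.4% of all windows and 5 of the 74, and CAGCTG in 13% and 11 of the 74. GC content was 76.8% for Unc5a and 60.4% for Sema3g, with a median of 52.4% over all windows. A match describes the letters of a window and is not evidence of binding.

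Plexins and neuropilins, the receptors of semaphorins, were mostly higher in bulk Ngn3-low cells. Of 11 tested, 8 fell into Ngn3-high cells, 1 rose and 2 were not called, where 30.2% of all genes tested fell and 27.7% rose. Nrp1, a co-receptor of class 3 semaphorins and of vascular endothelial growth factor, held 241 and 225 CPM in Ngn3-low libraries, 22.5 and 24.4 in Ngn3-high and 9.11 and 24.6 CPM in Ins1-RFP positive libraries, a first fall of 3.23 (SE 0.35, edgeR adjusted p = 8.35e-05). Nrp2 went from 68.3 and 78.9 CPM to 7.00 and 6.10 CPM and then 4.52 and 8.50 CPM. Plxnd1, a receptor best known in endothelium, went from 280 and 292 CPM to 27.9 and 28.8 CPM and then 13.4 and 31.8 CPM (first fall 3.25, SE 0.315, edgeR adjusted p = 4.26e-05). Plxnc1, the receptor of Sema7a and well known in white blood cells, had the largest fall of any guidance gene, 4.89 (SE 0.279, edgeR adjusted p = 2.21e-06), from 42.3 and 40.4 CPM to 0.949 and 1.76 CPM. It rose by 1.27 to 2.64 and 3.36 CPM in Ins1-RFP positive cells. The sums of endothelial and macrophage markers given above fell along with these 4 genes, and their part in the bulk falls was not tested. Nrp1 and Plxnd1 were called lower in Ins1-RFP positive than in Ngn3-high cells without Ins1-RFP positive library 2, by 1.26 (edgeR adjusted p = 0.000213) and 0.98 (0.000658); with all libraries neither was called, but Nrp1 was with no filter on low counts (-0.41, adjusted p = 0.0212).

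The class A and B plexins behaved differently from one another. Plxna3 was the 1 plexin that rose, from 58.1 and 64.4 CPM to 178 and 120 CPM (1.37, SE 0.183, edgeR adjusted p = 0.000287), before falling by 0.92 to 78.1 and 70.4 CPM. Plxna1 fell at both steps, from 180 and 175 CPM to 96.9 and 80.5 CPM and to 33.6 and 43.2 CPM. Plxna2 read 66.6 and 60.4 CPM, then 46.7 and 43.1, then 40.1 and 46.8 CPM; its first fall, of 0.42, was not called without Ngn3-low library 1 (edgeR adjusted p = 0.173) or without Ngn3-high library 2 (0.103). Plxnb1, a receptor of Sema4d, held 332 and 332 CPM, then 453 and 355, then 281 and 237 CPM. The last step was a fall of 0.56 (edgeR adjusted p = 0.0178), which was not called without Ngn3-high library 1 (0.111) or without Ins1-RFP positive library 2 (0.0842). The first step, of 0.37, was not called with all libraries in edgeR (adjusted p = 0.0747) but was in DESeq2 (0.0349), and in edgeR without Ngn3-high library 2 (0.55, edgeR adjusted p = 0.0247), without Ins1-RFP positive library 1 (0.0487) or without its library 2 (0.0477). Plxnb2 was called in no comparison, at 646 and 603, 530 and 470, and 608 and 499 CPM, with log2 fold changes of -0.24, 0.23 and -0.01 (SE 0.150 each). Plxna4 and Plxnb3 both fell into Ngn3-high cells, from 6.38 to 12.6 CPM down to 1.76 to 3.02 CPM.

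Of 13 membrane semaphorins, 3 rose, 3 fell and 7 were not called between Ngn3-low and Ngn3-high cells, where 57.9% of all genes tested were called. Sema4d, the ligand of Plxnb1, went from 116 and 111 CPM to 46.2 and 46.2 CPM (fall of 1.22, SE 0.109, edgeR adjusted p = 2.69e-05) and rose again to 67.2 and 60.6 CPM. Sema6a, a ligand of Plxna2 and Plxna4, stepped down from 95.7 and 95.6 CPM to 69.1 and 67.3 CPM and to 18.3 and 20.5 CPM, with falls of 0.40 and 1.73. The first of these was not called without Ngn3-low library 1 (edgeR adjusted p = 0.0852) or 2 (0.0559). Sema6b, a class 6 semaphorin, was high in Ngn3-high cells, at 23.4 and 19.8 CPM against 7.77 and 7.61 CPM before and 7.03 and 5.89 CPM after. Sema4a rose from 19.4 and 18.9 CPM to 34.8 and 28.1 CPM, by 0.80, and held 22.1 and 21.5 CPM in Ins1-RFP positive cells; that fall of 0.45 was called with all libraries (edgeR adjusted p = 0.0411). It was not called without Ngn3-high library 1 (0.225), Ngn3-low library 1 (0.0736) or 2 (0.0750), nor without either Ins1-RFP positive library (0.0658 and 0.104), nor by DESeq2 with all libraries (0.0904).

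Sema4b, Sema4c, Sema4g, Sema5a and Sema6d were not called between the E13.5 populations. Sema4c, a ligand of Plxnb2, held 81.2 and 79.5 CPM, then 118 and 86.1, then 59.7 and 45.7 CPM, a fall of 0.87 at the last step; it was called higher in Ngn3-high than in Ngn3-low cells without Ngn3-high library 2 (0.66, edgeR adjusted p = 0.0194) or without Ins1-RFP positive library 1 (0.0338) or 2 (0.0301), which share its estimate of spread. Sema4g went from 50.2 and 38.9 CPM in Ngn3-high to 21.3 and 23.3 CPM in Ins1-RFP positive cells, and Sema5a from 31.3 and 41.6 to 11.4 and 21.7 CPM, falls of 0.92 and 1.06. Without Ngn3-high library 1, Sema4g was called lower in Ngn3-high than in Ngn3-low cells (-0.51, edgeR adjusted p = 0.0206). The fall of Sema5a was not called without Ngn3-high library 2 (edgeR adjusted p = 0.0831). Sema4b rose at that step, from 60.5 and 53.9 CPM to 82.7 and 66.6 CPM (0.47), but not without Ngn3-high library 2 (edgeR adjusted p = 0.119) or without Ins1-RFP positive library 1 (0.179). Sema6d lay between 38 and 51.1 CPM in all 6 libraries and was not called in edgeR with TMM scaling; with total counts it was called lower in Ngn3-high than in Ngn3-low cells (-0.36, edgeR adjusted p = 0.0196).

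**Figure D2:**
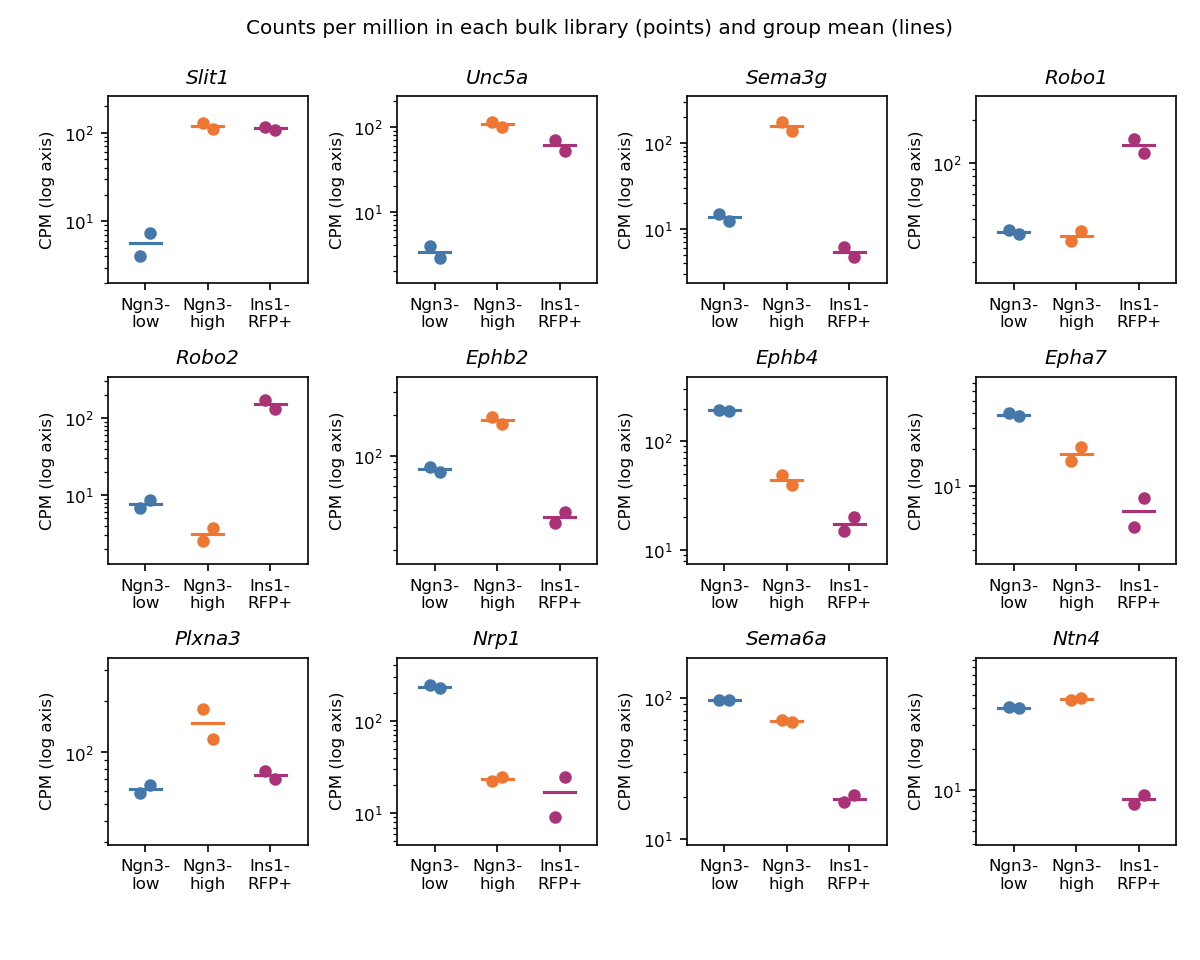
CPM of 12 guidance genes in each bulk library (points) with the mean of each group of 2 (lines), on log axes that differ between panels. Slit1 and Unc5a are low in Ngn3-low alone, Sema3g is high in Ngn3-high alone, Robo1 and Robo2 are high in Ins1-RFP positive cells alone, and Nrp1 and Ephb4 are highest in Ngn3-low cells.

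Eph receptors are tyrosine kinases that bind ephrins on neighbouring cells, the A class mostly ephrin-A proteins held by a lipid anchor and the B class transmembrane ephrin-B proteins. Between Ngn3-low and Ngn3-high cells, 5 of 12 rose and 5 fell, where 27.7% of all genes tested rose and 30.2% fell. From Ngn3-high to Ins1-RFP positive cells 9 fell and the other 3 were not called, where 24.9% of all genes tested fell. The B receptors Ephb4 and Ephb2 separated the E13.5 populations. Ephb4, the partner of Efnb2 between arteries and veins, held 196 and 192 CPM in Ngn3-low, 48.6 and 39.9 in Ngn3-high and 14.9 and 20.1 CPM in Ins1-RFP positive libraries, with falls of 2.04 (SE 0.155, edgeR adjusted p = 1.02e-05) and 1.26 (SE 0.161, edgeR adjusted p = 0.000386). Ephb2 rose from 83.2 and 76.7 CPM to 193 and 174 CPM, by 1.28 (SE 0.125, edgeR adjusted p = 4.56e-05), and fell to 31.7 and 38.4 CPM, by 2.31. For both genes no library of one group reached the range of another. Ephb3 read 46.8 and 39.4 CPM, then 61 and 47.9, then 18.9 and 18.8 CPM; the fall of 1.45 was called with all libraries, and the earlier difference of 0.42 was not (edgeR adjusted p = 0.0503) but was without Ngn3-high library 2 (0.60, edgeR adjusted p = 0.0212), without Ins1-RFP positive library 1 (0.0409) or without its library 2 (0.0398).

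Among A receptors, Epha1, Epha2 and Epha7 fell into Ngn3-high cells and Epha3, Epha4 and Epha8 rose. Epha1 went from 36.8 and 39.3 CPM to 7.53 and 6.36 CPM and stayed at 6.41 and 6.71 CPM. Epha2, a receptor of many epithelia, went from 10.5 and 16.8 CPM to 1.42 and 0.753 CPM, then 2.01 and 2.31 CPM, and the last step was not called with all libraries (edgeR adjusted p = 0.0638) but was without Ngn3-high library 1 (1.61, adjusted p = 0.0432) or with no filter on low counts (0.0180). Epha7 stepped down from 39.4 and 37.5 CPM to 15.9 and 20.8 CPM and to 4.58 and 7.90 CPM; its first fall of 0.99 was not called without Ngn3-high library 1 (edgeR adjusted p = 0.0596). In the bulk libraries the rising receptors peaked in Ngn3-high cells. Epha3 read 2.48 and 1.96 CPM, then 10.3 and 15.1, then 2.14 and 6.93 CPM, and its later fall of 1.41 was not called without either Ngn3-high library (edgeR adjusted p = 0.0725 and 0.177) or Ins1-RFP positive library 1 (0.0599). Epha8 read 3.32 and 1.80 CPM, then 17.4 and 8.95, then 2.32 and 4.40 CPM; its fall of 1.91 had an adjusted p = 0.0837 in edgeR without Ngn3-high library 1. In WT single cells Epha3 and Epha8 were higher in the Ngn3-high group, but Epha4 was not. It stood at 1.05 CPM in WT Ngn3-low and 0.115 CPM in WT Ngn3-high single cells, both under 5 CPM. In bulk, Epha4 read 7.15 and 8.75 CPM, then 18.9 and 13.7, then 2.01 and 5.22 CPM. Its rise of 1.13 was not called without Ngn3-high library 1 (edgeR adjusted p = 0.192), nor without Ngn3-low library 1 (0.12) or 2 (0.0644).

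Of 8 ephrins, 4 fell, 1 rose and 3 were not called at the step to Ngn3-high cells, where 57.9% of all genes tested were called. Efnb2, the transmembrane ligand of Ephb4, dropped from 26.1 and 27.3 CPM to 6.23 and 5.85 CPM and returned to 16.6 and 15.1 CPM, a fall of 2.06 (SE 0.169, edgeR adjusted p = 1.60e-05) and a rise of 1.47 (SE 0.169, edgeR adjusted p = 0.000219). Efna1, a lipid-anchored ligand of A receptors, had the same course, from 13.6 and 14.2 CPM to 3.26 and 2.43 CPM and back to 7.79 and 5.82 CPM. Both stood lower in Ins1-RFP positive than in Ngn3-low cells, and that was not called without Ngn3-low library 1 (edgeR adjusted p = 0.0557 for Efna1 and 0.0613 for Efnb2) or library 2 (0.0538 and 0.0686), nor for Efna1 without Ins1-RFP positive library 2 (0.0523). Efna4 fell at both steps, from 18.4 and 23.2 CPM to 6.23 and 4.68 CPM and to 0.942 and 1.27 CPM. Efnb1, a B ligand, fell from 54.3 and 52.9 CPM to 30.8 and 29.1 CPM, by 0.76, and held 23.2 and 21.6 CPM in Ins1-RFP positive cells. Efnb3, another B ligand, lay between 16.8 and 27.6 CPM in all libraries and was lower in Ins1-RFP positive than in Ngn3-low cells (-0.49, SE 0.138, edgeR adjusted p = 0.0128), which was not called without either Ngn3-low library (adjusted p = 0.0962 and 0.0619). Efna2 was the ephrin that rose, from 20.4 and 20.7 CPM to 27.8 and 30.4 CPM (0.58), and it fell by 0.71 to 18.2 and 15.2 CPM. The rise was not called without Ngn3-low library 1 (edgeR adjusted p = 0.0653), Ngn3-low library 2 (0.0769) or without Ngn3-high library 2 (0.0503).

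Genes that carry guidance signals inside the cell, and other guidance ligands and receptors, moved both ways in 5 lists taken from general knowledge of the pathways. Of all genes tested, 57.9% were called from Ngn3-low to Ngn3-high cells (27.7% rose, 30.2% fell). From there to Ins1-RFP positive cells 50.9% were called (26.1% rose, 24.9% fell). At that second step the median log2 fold change over all genes was 0.01. It was -0.31 for semaphorin mediators, -0.77 for Eph mediators and -0.38 for Slit, Robo and netrin mediators. The other ligands and receptors had a median of 0.17 and the cytoskeletal list -0.06. Of 19 mediators of semaphorin signals, 8 rose and 6 fell from Ngn3-low to Ngn3-high cells, and 1 rose and 7 fell from there to Ins1-RFP positive cells. Dpysl5, a collapsin response mediator, rose from 10.3 to 220 CPM on average (4.48, SE 0.213, edgeR adjusted p = 9.32e-07) and fell to 31.2 CPM, and Dpysl4 of the same family went from 4.26 to 34.2 and 3.77 CPM. Mical2, which oxidises actin downstream of plexins, went from 31.9 to 298 and 189 CPM. Fes, a kinase also abundant in myeloid cells, fell from 69.8 to 2.56 CPM, in the same direction as the macrophage markers, whose part in it was not tested. Of 17 mediators of Eph signals tested, 5 rose and 6 fell at the first step and 3 rose and 10 fell at the second. Inppl1, a lipid phosphatase bound by Epha2, went from 216 to 717 and 136 CPM, while Tiam1, an exchange factor for Rac, fell from 150 to 34.9 and 19.4 CPM.

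Of 23 mediators of Slit, Robo and netrin signals, 5 rose and 6 fell into Ngn3-high cells, and 5 rose and 12 fell from there to Ins1-RFP positive cells. Trim9, a ubiquitin ligase that binds Dcc, was high in Ngn3-high cells, with 1.52 and 2.29 CPM before, 84.0 and 87.3 CPM there and 8.98 and 8.72 CPM after (rise of 5.60, SE 0.191, edgeR adjusted p = 3.71e-07). Its relative Trim67 rose at both steps, from 0.672 to 15 and 33.8 CPM. Pak3, a kinase activated by Rac and Cdc42, rose from 8.40 to 295 CPM and was at 375 CPM in Ins1-RFP positive cells, while Dock1, another Rac activator, fell from 218 to 44.1 and 20.3 CPM. Among 29 other guidance ligands and receptors tested, 9 rose and 12 fell at the first step and 9 rose and 9 fell at the second. Draxin, a secreted netrin antagonist, went from 0.829 to 22.6 and 4.11 CPM, and Flrt1, a member of a family that binds Unc5 proteins, from 1.19 to 24.2 and 43.3 CPM. Robo4, the Robo of endothelium, fell from 21.4 to 0.249 CPM along with the endothelial markers. In the list of 16 cytoskeletal targets, 5 rose and 6 fell at the first step and 3 rose and 4 fell at the second, where the microtubule protein gene Mapt rose from 15.6 to 240 CPM.

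The single cells give the same E13.5 step from other samples, without a test. Values are CPM over all reads of a group, with 95% Poisson intervals that cover counting error only, and ratios are log2 of CPM plus 1. In WT cells 39 guidance genes reached 5 CPM in either group, of which 7 were at least 2-fold higher and 17 at least 2-fold lower in Ngn3-high cells, where 14% of all genes were higher and 19% lower. In Jmjd3-deleted cells 41 reached 5 CPM, with 11 higher and 18 lower, where 15.3% and 18.7% of all genes were (34% in either direction). Without the cells of title number 1, a number in the cell titles whose meaning the labels do not give, the 11 became 5. Of the genes that rose in bulk, 9 of 10 lay in the same direction in WT cells and 11 of 12 in Jmjd3-deleted cells, against 89.8% and 92.2% of all such genes. Of those that fell in bulk, 16 of 17 and 17 of 17 did, against 92.0% and 91.5%.

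**Figure D3:**
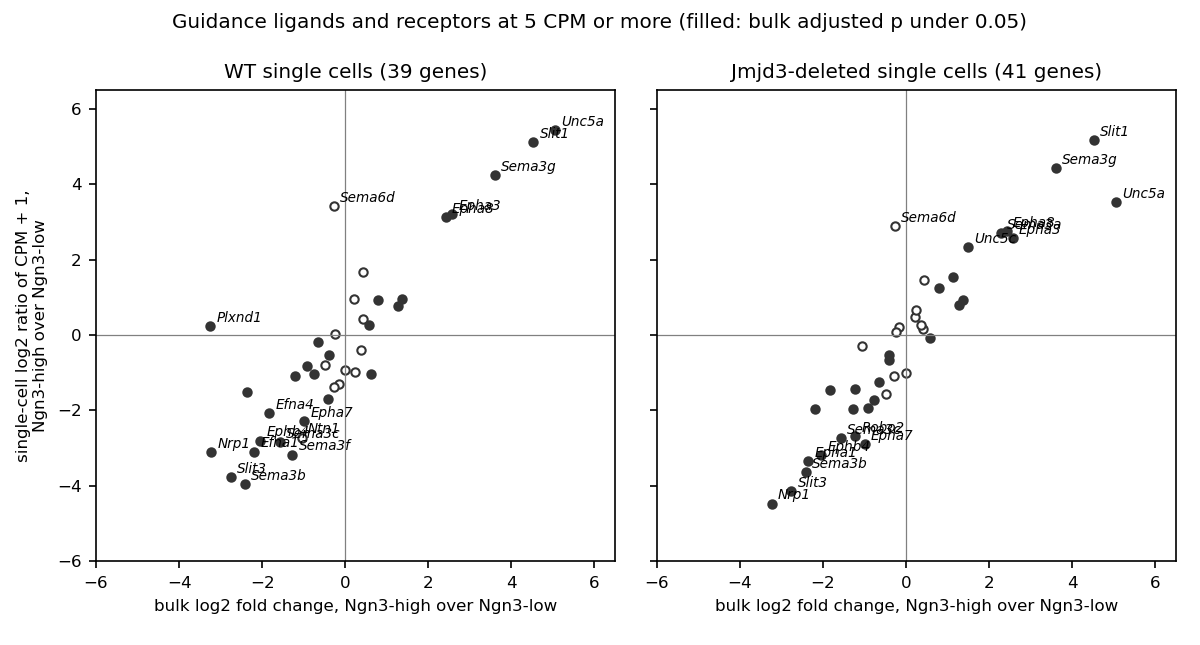
Log2 fold change of guidance genes between bulk Ngn3-high and Ngn3-low cells (x axis) against the log2 ratio of CPM plus 1 between the single-cell groups (y axis), for WT cells (39 genes) and Jmjd3-deleted cells (41 genes); filled points were called in bulk. Most points lie along the diagonal, with Unc5a, Slit1 and Sema3g at the upper right, Sema6d higher in single cells alone, and Plxnd1 lower in bulk and near 0 in WT single cells.

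Slit1, Unc5a and Sema3g were nearly absent from Ngn3-low cells and present in a part of the Ngn3-high cells. Slit1 stood at 0.247 CPM (0.107 to 0.487) in WT Ngn3-low and 42.6 CPM (40.7 to 44.6) in WT Ngn3-high cells, and at 0.269 and 44.8 CPM in the Jmjd3-deleted groups. At 10 CPM or more it was found in 0 of 49 and 31 of 59 WT cells, or 52.5% (39.1% to 65.7%, exact Clopper-Pearson interval), and in 1 of 69 and 24 of 44 Jmjd3-deleted cells (54.5%). The count of 0 allows up to 7.25% of cells at that level by the same interval, which covers counting error and not missed transcripts; 8.16% of WT Ngn3-low cells held a read of Slit1. Unc5a had 0 reads in WT Ngn3-low cells and 42.3 CPM in WT Ngn3-high cells, where 30 of 59 cells held 10 CPM or more (50.8%, 37.5% to 64.1%). Sema3g was at 0.0309 CPM in WT Ngn3-low and 18.7 CPM in WT Ngn3-high cells (18 of 59 cells), and at 0 and 20.5 CPM in the Jmjd3-deleted groups. The 3 genes did not always share cells: in WT Ngn3-high cells 16 held both Slit1 and Unc5a, 15 Slit1 without Unc5a, 14 Unc5a without Slit1 and 14 neither. Sema3g was found with Unc5a in 11 cells and with Slit1 in 7. A transcript can be missed in a single cell, so these counts are lower limits on sharing.

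Of the receptors that were higher in Ngn3-low cells, Ephb4 was the one seen in nearly every cell of that gate. It stood at 120 CPM in WT Ngn3-low and 16.4 CPM in WT Ngn3-high cells, and at 144 and 15 CPM in the Jmjd3-deleted groups. It reached 10 CPM in 45 of 49 WT and 69 of 69 Jmjd3-deleted Ngn3-low cells, but in 17 of 59 and 9 of 44 Ngn3-high cells. Nrp1 read 107 and 11.5 CPM in WT and 148 and 5.73 CPM in Jmjd3-deleted cells, with 40 of 49 WT Ngn3-low cells at 10 CPM or more. Epha7, at that level in 61.2% of WT Ngn3-low cells, read 54.7 and 10.4 CPM in WT and 85.3 and 10.6 CPM in Jmjd3-deleted cells. Ephb2 differed less than in bulk, at 17.8 and 30.9 CPM in WT cells, and it was found beside Ephb4 in 19 WT Ngn3-low cells but without it in 23 WT Ngn3-high cells. Plxnb2 was even across all 4 groups, at 195, 201, 197 and 209 CPM, and reached 10 CPM in 48 of 49, 59 of 59, 69 of 69 and 42 of 44 cells. Among ligands, Sema3c read 153 and 20.6 CPM in WT cells, Sema3f 33.9 and 2.87 CPM, and Sema3b 27.4 and 0.827 CPM. Slit3 read 20.3 and 0.574 CPM, a direction that was lost when only title numbers found in both groups were compared (log2 ratio 0.09).

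The number of cells that held both a ligand and a known receptor differed between pairs. In WT Ngn3-low cells 36 of 49 held both Sema4d and Plxnb2 at 10 CPM or more, 35 held Sema4d and Plxnb1, and 32 held Efnb1 and Ephb4. In WT Ngn3-high cells those counts were 24, 17 and 11 of 59, and Sema4c was found with Plxnb2 in 32. Plxnb2 and, in Ngn3-low cells, Ephb4 were in nearly every cell, so these counts follow the ligand. Sema3c was found with Plxnd1 in 6 WT cells of each gate, Efnb2 with Ephb4 in 4 Ngn3-low and 0 Ngn3-high cells, Sema3f with Nrp2 in 1 and 0, and Ntn1 with Unc5a in 0 of either. Low counts are limited by the rarer gene of a pair. In WT Ngn3-low cells Plxnd1 was found without Sema3c in 1, Efnb2 without Ephb4 in 1, and Nrp2 without Sema3f in 0. Slit1 was found with Robo1 in 7 WT Ngn3-high cells and without it in 24, and with Robo2 in 1. Robo1 without Slit1 was found in 3 WT Ngn3-high cells. The 20 WT Ngn3-low cells with Robo1 held no Slit1 at that level.

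**Figure D4:**
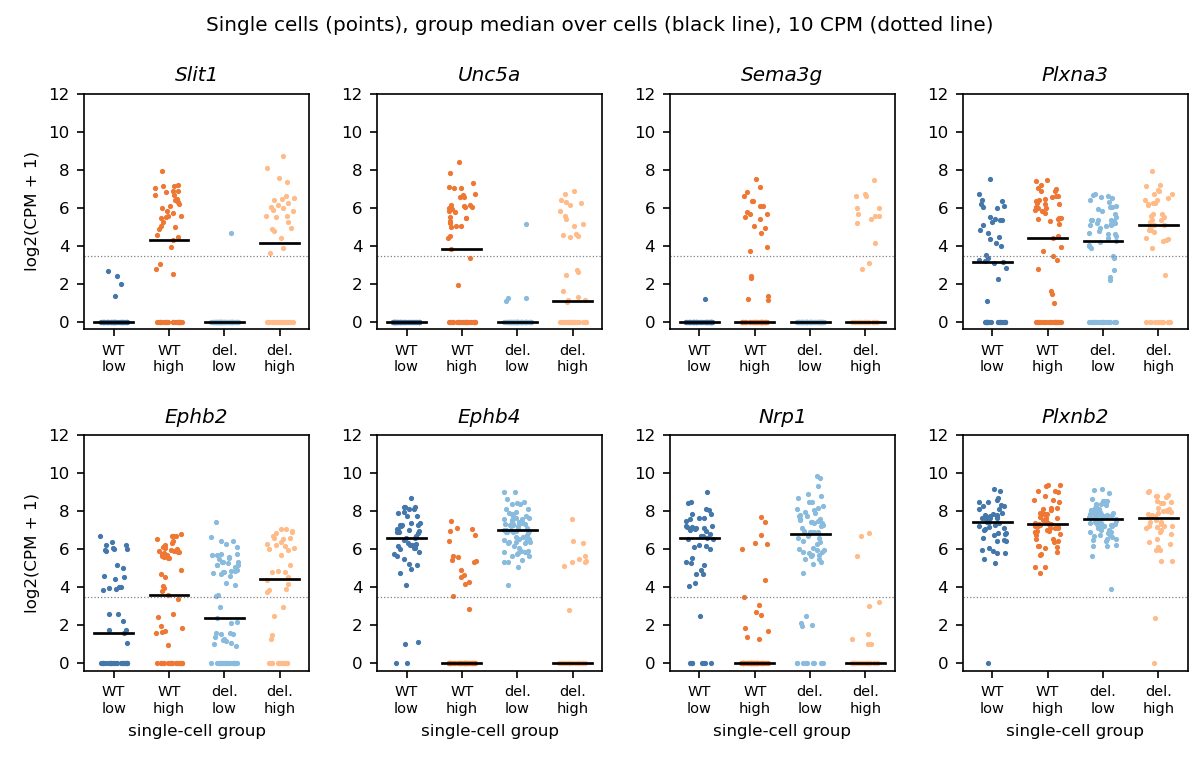
Log2 of CPM plus 1 for 8 guidance genes in each single cell (points) of the 4 groups, with the median over cells (black line) and 10 CPM (dotted line). Slit1, Unc5a and Sema3g are at 0 in nearly every Ngn3-low cell, Ephb4 and Nrp1 are above 10 CPM in most Ngn3-low cells and few Ngn3-high cells, and Plxnb2 is level across groups.

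Several receptors of the bulk Ngn3-low libraries were not at that level in Ngn3-low single cells. Plxnd1 stood at 286 CPM in bulk and 4.79 CPM in WT single cells, Nrp2 at 73.6 and 0.99, and Plxnc1 at 41.4 and 0.588 CPM. On the log2 scale with 1 CPM added, bulk exceeded single cells by 5.63, 5.23 and 4.74 for these genes, where the median over all genes was 0.11 and 5.79% of genes differed by 3 or more. Sema6d (4.70), Sema3g (3.83), Sema4c (3.63), Plxna4 (3.53), Ntn4 (3.27) and Sema6b (3.12) also did so. Such gaps were not limited to the Ngn3-low gate. In the Ngn3-high gate 2.67% of all genes reached 3 or more. Ntn4 (4.23), Epha4 (3.96), Sema3f (3.45), Sema4g (3.15), Ntn1 (3.14) and Sema3g were among them. Plxnd1, Nrp2, Plxnc1, Sema6d, Sema4c, Plxna4 and Sema6b were below 3 in that gate. The difference for Plxnd1 between Ngn3-high and Ngn3-low, a fall of 3.25 in bulk, was 0.24 in WT single cells, and for Nrp2 the ratio was 1.09, with 3.24 CPM in the Ngn3-high cells. Nrp1, by contrast, was lower in Ngn3-high cells in both kinds of sample. In the Ngn3-low gate the endothelial markers summed to 491 and 544 CPM in bulk and 46.2 CPM in WT single cells. Of these 13 genes, 4 had 0 reads in the single cells. The macrophage markers summed to 2878 and 3456 against 9.19 CPM. In the bulk Ngn3-high libraries the sums were 11 and 16.1 CPM (endothelial) and 10.7 and 19 CPM (macrophage). The part of these transcripts in the differences was not tested. Sema6d, not called in bulk, read 0.99 CPM in WT Ngn3-low and 20.3 CPM in WT Ngn3-high cells, and 0.882 and 13 CPM in the Jmjd3-deleted groups.

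Within Ngn3-low cells, few genes differed by 2-fold between Jmjd3-deleted and WT cells, among guidance genes as among all genes. Of 33 genes at 5 CPM or more, 1 was at least 2-fold higher and 1 at least 2-fold lower, where 1.70% and 2.65% of all genes were (4.36% in either direction). Robo2 was the higher one, at 5.79 against 1.73 CPM, and the log2 ratios within title numbers 1, 2 and 5 were 0.35, 0.77 and 3.29. Unc5b was the lower one, at 2.15 against 5.47 CPM, with -0.15, -1.73 and 0.00 within those numbers.

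Within Ngn3-high cells, 37 guidance genes reached 5 CPM, and 5 were at least 2-fold higher and 3 at least 2-fold lower in Jmjd3-deleted cells, where 2.96% and 2.76% of all genes were (5.72% in either direction). Unc5a was the most abundant of the lower genes, at 18.7 CPM (17.2 to 20.2) against 42.3 CPM (40.4 to 44.2), a log2 ratio of -1.14. It was lower within each of title numbers 1, 5 and 6, by 1.26, 0.44 and 1.61 on the log2 scale, and 15 of 44 cells reached 10 CPM (34.1%, 20.5% to 49.9%) against 30 of 59. The difference in share depended on that minimum, since 52.3% of Jmjd3-deleted and 54.2% of WT Ngn3-high cells held at least 1 read of Unc5a. WT cells of title number 5 read 19.6 CPM, close to the 23.1 CPM of Jmjd3-deleted cells of number 1. Slit1 and Sema3g, which rise at the same step, had log2 ratios of 0.07 and 0.13. Plxnd1 (0.868 against 5.84 CPM) and Epha1 (2.05 against 5.54 CPM) were the other lower genes, each in 3 of 3 title numbers. Both rested on few cells. Plxnd1 reached 10 CPM in 2.27% of Jmjd3-deleted and 11.9% of WT Ngn3-high cells, and Epha1 in 4.55% and 10.2%.

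The 5 higher genes were Sema5a, Epha4, Sema3f, Efna1 and Unc5c. Sema5a, a transmembrane semaphorin with thrombospondin repeats, stood at 28.7 against 10.1 CPM, with log2 ratios of 2.59, 0.35 and -0.08 in title numbers 1, 5 and 6. Epha4 (9.17 against 0.115 CPM) rested on few cells, since 3 cells reached 10 CPM and a single cell held 59.1% of its reads, and without number 1 its ratio was -0.05. In Efna1 (6.82 against 1.26 CPM) 1 cell held 84.5% of the reads, and the ratio without number 6 was -0.29. For Unc5c (5.86 against 0.276 CPM) the share of a single cell was 76.2%. Sema3f, at 6.79 against 2.87 CPM, was higher within all 3 numbers. None of these comparisons has replicate animals behind it.

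**Figure D5:**
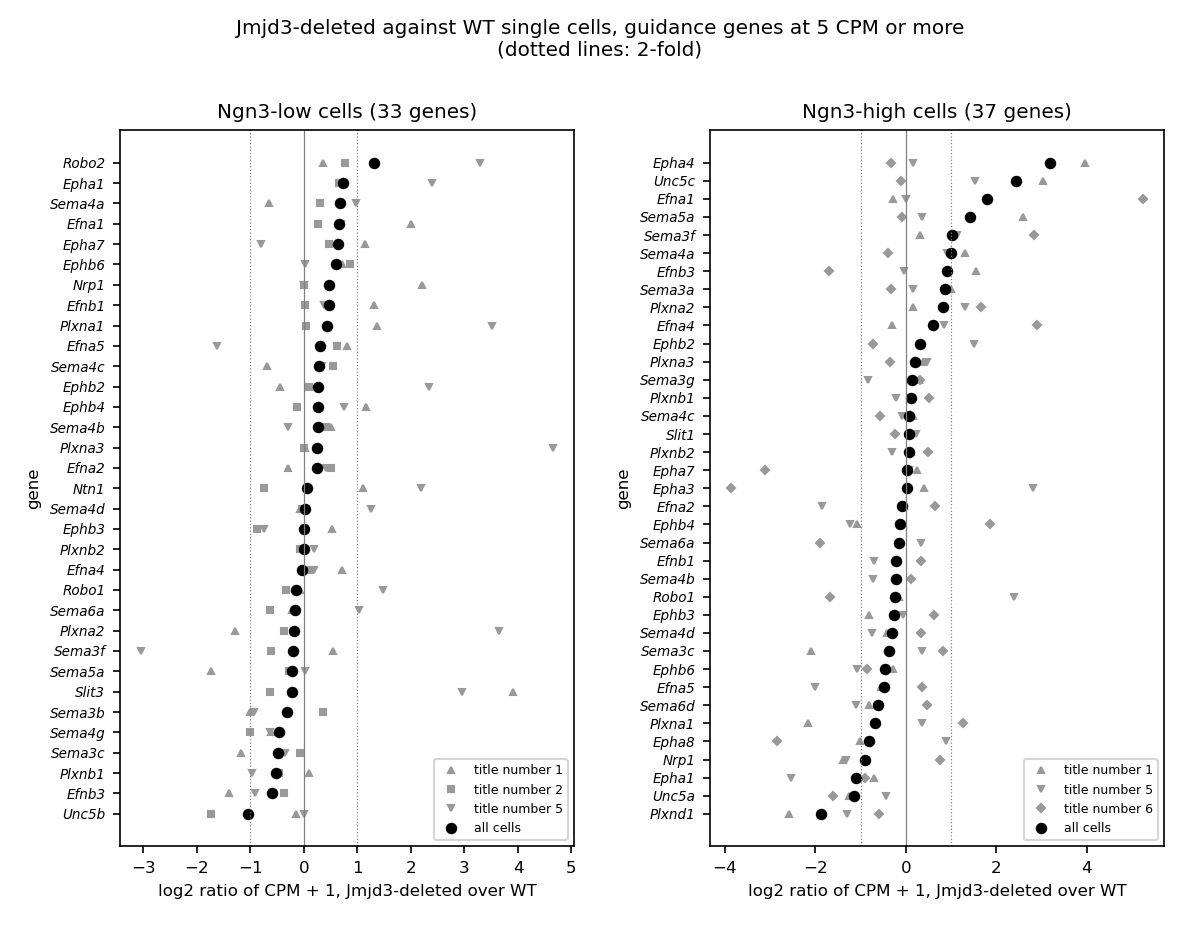
Log2 ratio of CPM plus 1 between Jmjd3-deleted and WT single cells for guidance genes at 5 CPM or more, in Ngn3-low cells (33 genes) and Ngn3-high cells (37 genes); black points use all cells, grey points the cells of 1 title number, and dotted lines mark 2-fold. Most black points lie within 2-fold, grey points scatter widely, and Unc5a and Plxnd1 lie left of 0 in each title number.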

How the data were processed

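RNA was measured in 6 bulk libraries and 221 single cells (Smart-seq2, without molecular identifiers). The authors deposited raw read counts per gene for both, and for bulk also pooled RPKM per group with the gene length in bases. Per the submitters' processing notes, the tools were TopHat2 2.1.0, Bowtie2, HTSeq 0.6.0 and DESeq 1.20.0 with genome mm10; the annotation and the strand setting: not given in the sources used here. The 31 ChIP samples were not analysed here.

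Counts were scaled to CPM without ERCC spike-ins. Bulk counts were fitted in edgeR 4.0.16 (R 4.3.3; TMM, filterByExpr, quasi-likelihood F-test, 3 groups sharing 1 spread), a step tested on simulated data. Single-cell reads were summed per group, with ratios of CPM plus 1, a minimum of 5 CPM and exact 95% intervals, which cover counting error only. Alternatives included DESeq2 1.42.0, total counts, no filter, a replicate block and leaving out each library or title number. Genes were named by rule: up to 4 called genes per family and comparison at 10 CPM or more, and any at 30 CPM or more (20 in single cells). Genes of these families and the lists were chosen with earlier results of these data known. RefSeq matched all 68 genes by symbol.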

Additional observations from a re-analysis of the deposited data

Results flagged for a closer look

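Efnb3, an ephrin-B ligand, had log2 ratios of opposite sign in WT and Jmjd3-deleted single cells, with a small one in the latter. In WT single cells it was lower in Ngn3-high than in Ngn3-low cells, at 7.56 against 20.2 CPM, a log2 ratio of -1.31, with -2.10 and -0.79 in the title numbers found in both groups. In Jmjd3-deleted cells it was at 15.2 against 13 CPM, a ratio of 0.21, with 0.85 and 0.06. Each title number of one genotype moved one way and each of the other the opposite way, and the difference was not tested.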

How the results depend on the processing

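No bulk fold change of a named gene that was called changed sign under any alternative. In Ins1-RFP positive against Ngn3-high cells, the guidance genes that rose went from 8 to 13 with no filter on low counts, and with 1 library left out the falls ranged from 19 to 30. The replicate numbers are only shared numbers, with correlations of 0.151, 0.114 and 0.102 between groups. With the replicate block the counts higher and lower were 21 and 27, 8 and 29, and 10 and 34 in the 3 bulk comparisons, and of 132 named fold changes 7 became called (Ephb3 0.42, Plxnb1 0.35 and Sema4c 0.41 in Ngn3-high against Ngn3-low, Efnb1 -0.34 in Ins1-RFP positive against Ngn3-high, and Plxna3 0.44, Sema4c -0.45 and Slit3 -1.85 in Ins1-RFP positive against Ngn3-low) and none was lost. Of single-cell counts, genes higher in WT Ngn3-high cells went from 7 to 14 with no minimum and 4 at a minimum of 20 CPM. In Jmjd3-deleted cells the 11 became 4 at 20 CPM, and 5 to 12 with a title number left out. For Jmjd3-deleted against WT Ngn3-low cells, the 1 higher gene became 0 with a pseudocount of 5 CPM, at 20 CPM or over shared title numbers, 3 with no minimum, and 1 to 2 with a number left out. The 1 lower gene became 0 with that pseudocount, at 20 CPM or without cells holding markers of other types (an alternative chosen after seeing the data), 4 with no minimum, 2 over shared numbers, and 0 to 2 with a number left out. In Ngn3-high cells the 5 higher became 3 with a pseudocount of 5 CPM or a mean over cells, 8 with no minimum, 1 at 20 CPM, and 4 to 9 with a number left out; the 3 lower became 0, then 6 with no minimum, 1 at 20 CPM, and 2 to 5. Signs turned for Slit3 (0.09) and Unc5b (0.42) in WT cells over shared numbers, and for Epha4 and Efna1 with a number left out: Epha4 ranged from -1.95 to 3.23 between Jmjd3-deleted gates and from -0.05 to 3.55 against WT Ngn3-high cells, both lowest without number 1, and Efna1 from -0.29 (without number 6) to 3.95 against WT. The cause of these changes was not tested.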
